A study of Homo sapiens with 12 samples.

Results

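The genes described here encode the integrin-linked kinase complex and its direct partners at integrin adhesions. They are the PINCH adaptors LIMS1 and LIMS2, the pseudokinase ILK, the parvins PARVA and PARVB, the Ras suppressor RSU1, the kindlins FERMT1 and FERMT2, talin (TLN1) and vinculin (VCL). These 10 genes were chosen by symbol from the 23064 gene symbols of the count tables, and the group was built around LIMS2 because LIMS2 was among the strongest falls after KMT9α knockdown. The knockdown contrast of LIMS2 is therefore given as a description with no test, and tests are reported for the other 9 members.

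RNA-seq had been performed on CAL-29 and 5637 cells, both bladder carcinoma cell lines with epithelial morphology, to study how depletion of KMT9α affects their transcriptome. KMT9α, encoded by N6AMT1, is the catalytic subunit of the histone H4 lysine methyltransferase KMT9. Each line was transfected with a control siRNA (siCtrl) or with an siRNA against KMT9α (siKMT9α), and RNA was taken on day 3 from 3 samples per group, 12 libraries in all. All samples are labelled as wild type, the same siRNA against KMT9α was used in all 6 knockdown libraries, and no library with another siRNA against KMT9α was analysed here. The transfection reagent and the siRNA concentration differed between the lines, so these conditions and the line cannot be told apart. The labels do not say whether the 3 samples of a group came from separate cultures, so the p-values measure the spread between these samples, which may be technical.

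ILK, a PINCH protein and a parvin form a ternary complex in the cytoplasm that is recruited to clustered integrins, where the parvin links it to actin and RSU1 binds PINCH. Talin and the kindlins bind integrin β tails directly and switch integrins to the active state, and vinculin strengthens the bond of talin to actin filaments. In epithelial cells this machinery anchors the cytoskeleton to the extracellular matrix and is known for its part in spreading and migration. PINCH and parvin proteins occur as alternative paralogs in separate ILK complexes.

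The libraries held between 24479348 and 35151256 counts over 1 row per gene. The CAL-29 library siCtrl 1 stood apart from the other 2 libraries of its group: the chi-square of their counts divided by its degrees of freedom was 8.16 and 12.2, and at most 3.99 in every other pair of replicates. Without it, edgeR called the same number of tested members in CAL-29 cells (7), the log2 fold change of LIMS2 was -3.43 in place of -3.44, that of PARVB was -0.03 in place of 0.04, and 5533 genes in place of 4396 were called. Levels are given as CPM, the counts scaled to a common library total, after trimmed mean of M values (TMM) scaling within a line. Differences are given as edgeR log2 fold changes of siKMT9α against siCtrl with standard errors (SE). The SE was derived here from the log2 fold change and the F value of the edgeR test. N6AMT1 had 10.4 ± 0.89 CPM in siCtrl and 2.58 ± 0.515 CPM in siKMT9α CAL-29 cells (SD, n = 3 each), a log2 fold change of -2.0 ± 0.15 (SE). In 5637 cells it had 13.3 ± 0.0851 and 2.86 ± 0.819 CPM, a log2 fold change of -2.22 ± 0.12, so the targeted gene was lower in all 6 knockdown libraries. Of 10 epithelial and urothelial markers, all 10 in CAL-29 and 9 in 5637 reached at least 1 CPM in every library, the exception being the uroplakin UPK2 in 5637 cells. Of 7 markers of leukocytes, endothelium, fibroblasts and muscle, MYH11 alone reached 1 CPM in every library, and the 7 together summed to between 4.19 and 6.05 CPM in 5637 and between 4.53 and 5.57 CPM in CAL-29 libraries. Less RNA per cell and fewer cells that express a gene cannot be told apart in such bulk libraries.

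LIMS2, which encodes the PINCH2 adaptor, fell to a small part of its control level in both lines. Its level was 38.3, 36.3 and 40.0 CPM in the control libraries of CAL-29 cells, against 3.80, 3.93 and 2.704 CPM after knockdown. The control libraries of 5637 cells had 3.16, 2.25 and 3.45 CPM, against 0.562, 0.406 and 0.197 CPM after knockdown. No siKMT9α library overlapped a siCtrl library of its line, and the knockdown means were 9.11% and 13.2% of the control means in CAL-29 and 5637 cells. The log2 fold changes were -3.44 ± 0.10 (SE) and -2.95 ± 0.28 (SE), which placed LIMS2 at rank 56 of 14682 genes in CAL-29 and at rank 42 of 14367 genes in 5637 cells, counted from the lowest. The 5637 value rests on few reads, with 103, 70 and 123 counts in siCtrl and 15, 11 and 6 counts in siKMT9α libraries. All 4 transcript rows of LIMS2 gave like values, from -3.44 to -3.41 in CAL-29 and from -2.95 to -2.82 in 5637 cells, but these rows share most of their exons and reads.

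**Figure D1:**
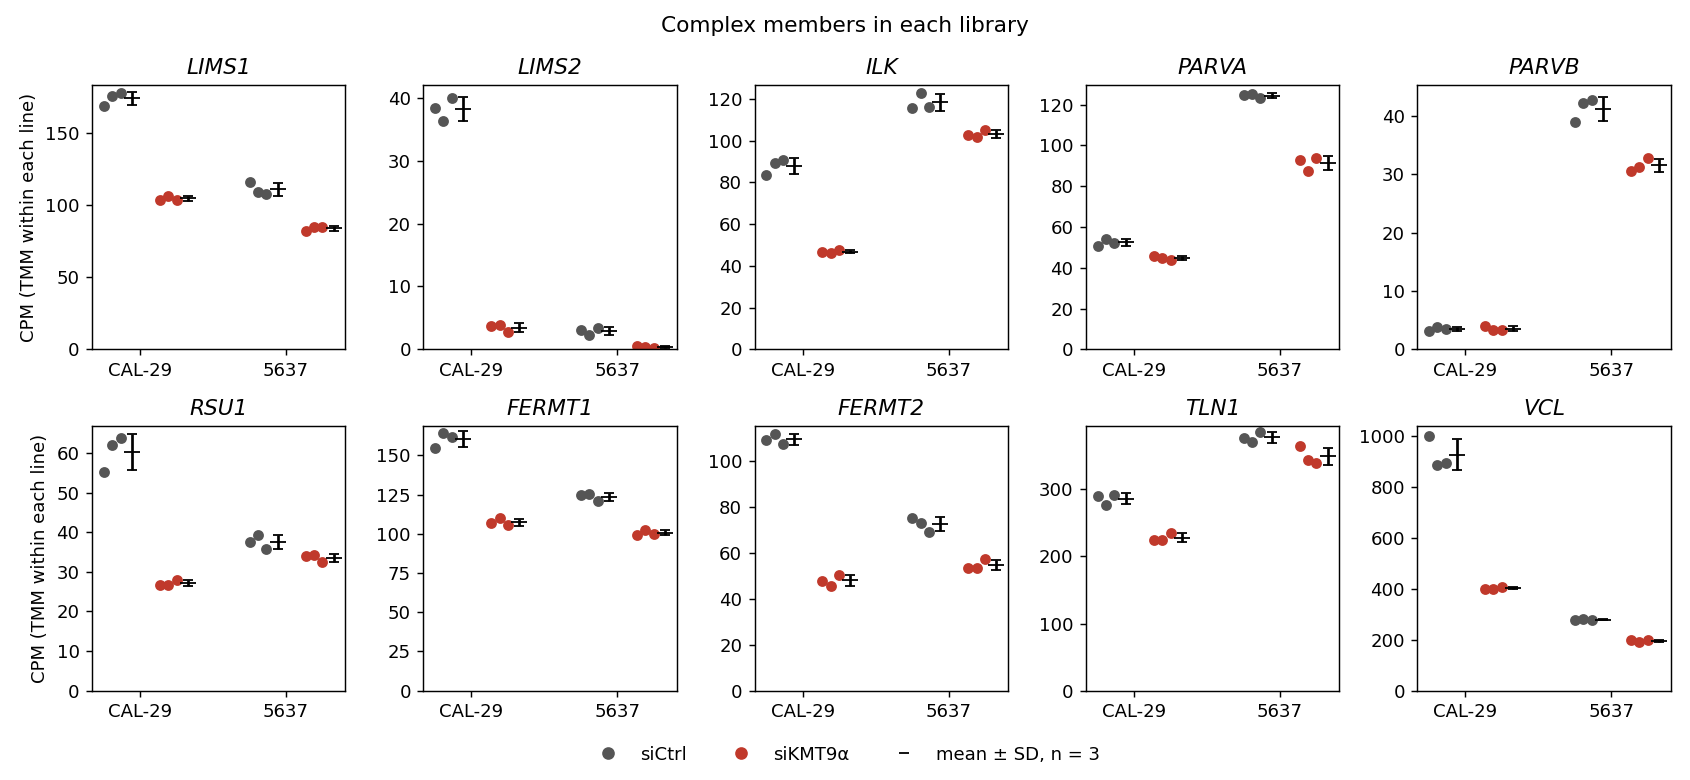
CPM after TMM scaling within each line (vertical axes, each from 0) of the 10 members in every library, with grey points for siCtrl, red points for siKMT9α and a bar for the mean ± SD of 3 libraries. LIMS2 dropped from 36.3 to 40.0 CPM down to 2.704 to 3.93 CPM in CAL-29 cells, while PARVB overlapped between the groups in that line.

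The remaining members fell by less, and nearly all of them moved downward. All 10 members passed the filter on low counts in both lines. In CAL-29 cells 7 of the 9 tested members were lower with siKMT9α at p below 1e-06 by edgeR, where 15.0% of the 14682 genes tested were lower by that rule and 14.9% were higher. At an adjusted p below 0.05, 8 of 9 members were lower in CAL-29, against 35.3% of all genes. In 5637 cells 6 of 9 members were lower at p below 1e-06, against 17.5% of 14367 genes that were lower and 17.9% that were higher, and all 9 were lower at an adjusted p below 0.05, against 35.6% of genes. None of the 9 rose by either rule. The median log2 fold change of the 9 members was -0.73 in CAL-29 and -0.39 in 5637 cells, beside medians of -0.02 and -0.01 over all genes tested.

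LIMS1, ILK and the PINCH partner RSU1 fell in CAL-29 cells to between 45.1% and 60.1% of control. The parvins, which are also part of the ternary complex, stood at 85.7% (PARVA) and 103% (PARVB) of control in that line. LIMS1, the PINCH1 paralog of LIMS2, had 168.9, 175.4 and 177.5 CPM in siCtrl and 103.8, 106.6 and 103.4 CPM in siKMT9α CAL-29 libraries. Its log2 fold change was -0.73 ± 0.05 (SE), with an edgeR adjusted p of 9.54e-12. In 5637 cells LIMS1 had 115.9, 109.2 and 107.5 CPM against 81.9, 84.8 and 84.8 CPM, a log2 fold change of -0.40 ± 0.04 with an edgeR adjusted p of 2.61e-10. The control and knockdown libraries of LIMS1 did not overlap in either line, and its fall was far smaller than that of its paralog.

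ILK, the scaffold that holds PINCH and parvin together, had 83.6, 89.2 and 90.8 CPM in siCtrl and 46.6, 46.4 and 47.7 CPM in siKMT9α CAL-29 libraries. This was a log2 fold change of -0.91 ± 0.05 (SE), with an edgeR adjusted p of 2.40e-12. In 5637 cells ILK had 115.8, 122.9 and 116.3 CPM against 102.5, 101.6 and 105.2 CPM. The groups were again apart, but the log2 fold change of -0.20 ± 0.04 had an unadjusted p of 9.70e-06 and missed the threshold of 1e-06, with an edgeR adjusted p of 2.39e-05. Both scalings other than TMM, and the fit with no filter on low counts, brought ILK past that threshold in 5637 cells.

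RSU1, which binds PINCH1 within the complex, had 55.1, 62.0 and 63.8 CPM in siCtrl and 26.8, 26.8 and 28.1 CPM in siKMT9α CAL-29 libraries. Its log2 fold change there was -1.15 ± 0.06 (SE), with an edgeR adjusted p of 1.46e-12. In 5637 cells the values were 37.6, 39.2 and 35.8 CPM against 33.9, 34.3 and 32.4 CPM, a log2 fold change of -0.16 ± 0.05. RSU1 thus came to 45.1% of control in CAL-29 cells and to 89.3% in 5637 cells, where it passed the adjusted threshold (edgeR adjusted p = 0.00679) and not that of 1e-06.

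The parvins, which carry the complex to actin, were the members with the smallest changes in CAL-29 cells. PARVA had 50.8, 54.3 and 52.0 CPM in siCtrl and 46.0, 44.7 and 43.97 CPM in siKMT9α CAL-29 libraries, a log2 fold change of -0.22 ± 0.05 (SE) with an edgeR adjusted p of 0.00114. In 5637 cells PARVA had 124.9, 125.2 and 123.1 CPM against 92.8, 87.3 and 93.7 CPM, and its log2 fold change of -0.45 ± 0.04 had an edgeR adjusted p of 1.32e-11. PARVB, the β-parvin, was the only member whose groups overlapped, with 3.099, 3.91 and 3.44 CPM against 4.03, 3.355 and 3.34 CPM in CAL-29 cells. Its log2 fold change of 0.04 ± 0.17 in that line had an edgeR adjusted p of 0.847 and a 95% interval from -0.29 to 0.36. In 5637 cells PARVB had 38.9, 42.1 and 42.7 CPM against 30.5, 31.3 and 32.8 CPM, a log2 fold change of -0.39 ± 0.05 with an edgeR adjusted p of 2.18e-07. The row with the most counts was another PARVB transcript in each line (NM_001003828 in CAL-29 and NM_013327 in 5637), and over all 4 rows the log2 fold change ran from 0.04 to 0.11 in CAL-29 and from -0.42 to -0.39 in 5637 cells.

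The kindlins, which activate integrins together with talin, were lower in both lines. FERMT2 (kindlin-2, which also binds ILK) had 109.2, 112.0 and 107.5 CPM in siCtrl and 48.0, 45.8 and 50.6 CPM in siKMT9α CAL-29 libraries, a log2 fold change of -1.19 ± 0.05 (SE) with an edgeR adjusted p of 2.78e-14. In 5637 cells it had 75.4, 72.9 and 69.2 CPM against 53.5, 53.5 and 57.2 CPM, a log2 fold change of -0.40 ± 0.04 with an edgeR adjusted p of 3.98e-09. FERMT1, the epithelial kindlin-1, had 154.5, 164.5 and 161.6 CPM against 106.7, 109.9 and 105.8 CPM in CAL-29 cells, and its log2 fold change was -0.58 ± 0.05 with an edgeR adjusted p of 5.93e-10. In 5637 cells FERMT1 had 124.5, 125.2 and 120.8 CPM against 99.4, 102.7 and 100.04 CPM, a log2 fold change of -0.29 ± 0.04 with an edgeR adjusted p of 2.30e-08. None of these 4 pairs of groups overlapped.

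Vinculin and talin, which join the adhesion to the actin cytoskeleton, differed in the size of their response. VCL had 997.7, 885.9 and 895.1 CPM in siCtrl and 399.6, 399.5 and 405.5 CPM in siKMT9α CAL-29 libraries, a log2 fold change of -1.21 ± 0.05 (SE) with an edgeR adjusted p of 3.21e-14. In 5637 cells VCL had 279.3, 280.7 and 277.7 CPM against 199.6, 189.4 and 197.2 CPM, and its log2 fold change of -0.52 ± 0.03 had an edgeR adjusted p of 3.25e-14. As for PARVB, the VCL row with the most counts differed between the lines (NM_014000 in CAL-29 and NM_003373 in 5637). Both VCL rows gave -1.21 in CAL-29 and -0.52 in 5637 cells. TLN1 had 290.6, 276.3 and 290.9 CPM against 224.2, 224.7 and 235.3 CPM in CAL-29 cells, and its log2 fold change was -0.33 ± 0.05 with an edgeR adjusted p of 2.62e-06. This call was close to the threshold of 1e-06, with an unadjusted p of 7.68e-07 that rose to between 2.52e-06 and 4.52e-05 when any 1 of 5 libraries was left out (siCtrl replicates 2 and 3 and each siKMT9α replicate) and to 3.12e-05 with scaling by total counts. In 5637 cells TLN1 had 376.1, 370.1 and 385.7 CPM against 363.6, 343.9 and 338.8 CPM, a log2 fold change of -0.11 ± 0.03 with an edgeR adjusted p of 0.00303.

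Counted over all 10 members, the siKMT9α libraries all lay below the siCtrl libraries for 9 members in CAL-29, where this held for 36.7% of all genes tested, and for all 10 in 5637 cells, where it held for 36.5%. LIMS2 is among these by the way it was chosen.

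**Figure D2:**
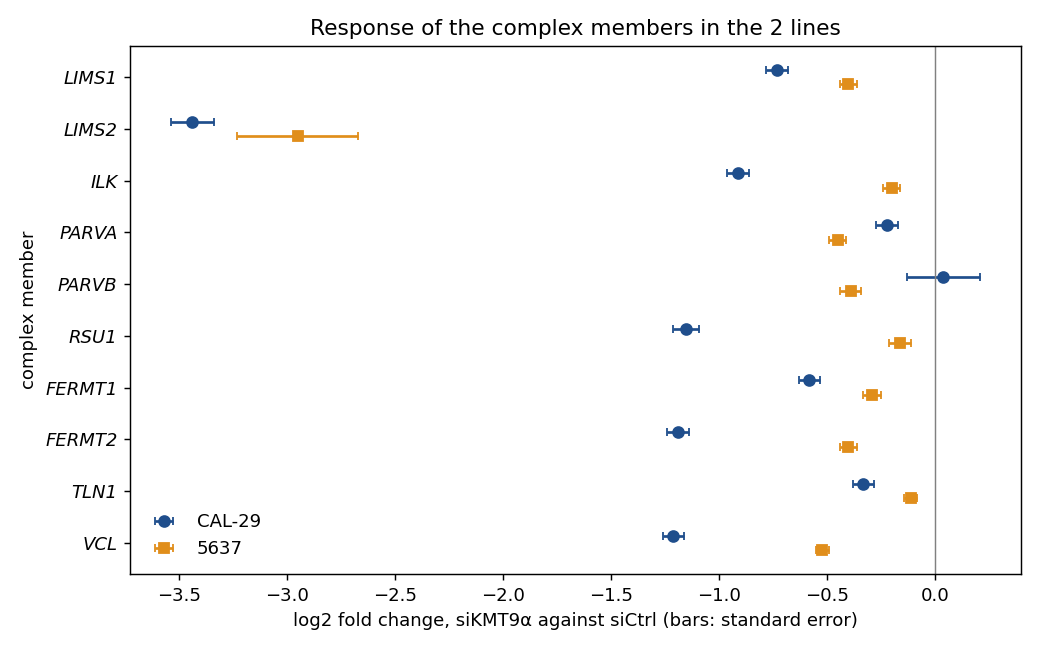
Log2 fold change of siKMT9α against siCtrl (horizontal axis) for the 10 members (vertical axis) in CAL-29 (blue circles) and 5637 cells (orange squares), with bars for the standard error derived from the edgeR fit to 3 libraries per group. LIMS2 stands at -3.44 and -2.95, and the other members lie between -1.21 and 0.04.

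Of the 9 tested members, 7 fell more in CAL-29 than in 5637 cells and the parvins had the lower log2 fold change in 5637 cells. In a model of all 12 libraries, the difference of the responses passed an edgeR adjusted p below 0.05 for all 9 tested members, where 50.3% of the 15411 genes tested did so. The p was below 1e-06 for ILK, RSU1, FERMT2 and VCL, and no share of all genes by that rule is given here. Among all genes, 3366 passed the adjusted threshold with a higher and 4391 with a lower value in 5637 cells. The direction was not particular to the complex. Of 38 other integrin adhesion genes tested, from the list described below, 25 passed, 20 with a higher and 5 with a lower value. The median difference was 0.31 in that list and 0.31 in the 9 members, beside -0.04 over all genes tested. The largest differences of the log2 fold changes (5637 minus CAL-29) were those of RSU1 at 0.97 ± 0.08 (SE), FERMT2 at 0.77 ± 0.07, ILK at 0.69 ± 0.06 and VCL at 0.68 ± 0.06, each with an edgeR adjusted p between 7.33e-11 and 2.36e-10. Those of the parvins were -0.24 ± 0.06 for PARVA (edgeR adjusted p = 0.0023) and -0.50 ± 0.14 for PARVB (edgeR adjusted p = 0.00409). This model used the row with the most counts over both lines, NM_013327 for PARVB and NM_014000 for VCL. Its differences are therefore not exactly those of the fold changes given per line. Scaling by total counts moved the median difference over all genes by -0.12. With it TLN1 had a difference of 0.08 and an adjusted p of 0.254, whereas the other 8 members kept an adjusted p below 0.05. For LIMS2 the difference was 0.47 ± 0.37, given without a test.

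The control cells of the lines already differed in each member. The choice of LIMS2 had not used this contrast but had used the same siCtrl libraries, so its values here are a description. On a scale common to all 12 libraries, siCtrl 5637 and siCtrl CAL-29 cells were compared. The 9 members other than LIMS2 all differed at p below 1e-06 by edgeR, where 59.9% of genes did so. In 5637 cells 4 members were higher and 6 lower, with LIMS2 counted among the 6. LIMS2 had 37.2 ± 1.79 CPM in siCtrl CAL-29 and 3.01 ± 0.642 CPM in siCtrl 5637 cells (SD, n = 3 each). Its level was 12.2-fold lower in 5637 cells, a log2 difference of -3.61 ± 0.12 (SE). PARVB showed the reverse, with 3.27 ± 0.404 CPM in CAL-29 and 42.1 ± 2.01 CPM in 5637 cells, a log2 difference of 3.68 ± 0.09 with an edgeR adjusted p of 7.69e-25. The log2 difference was -1.66 ± 0.04 for VCL and 1.32 ± 0.04 for PARVA, and the remaining 6 members differed by between 0.31 and 0.62 in either direction.

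**Figure D3:**
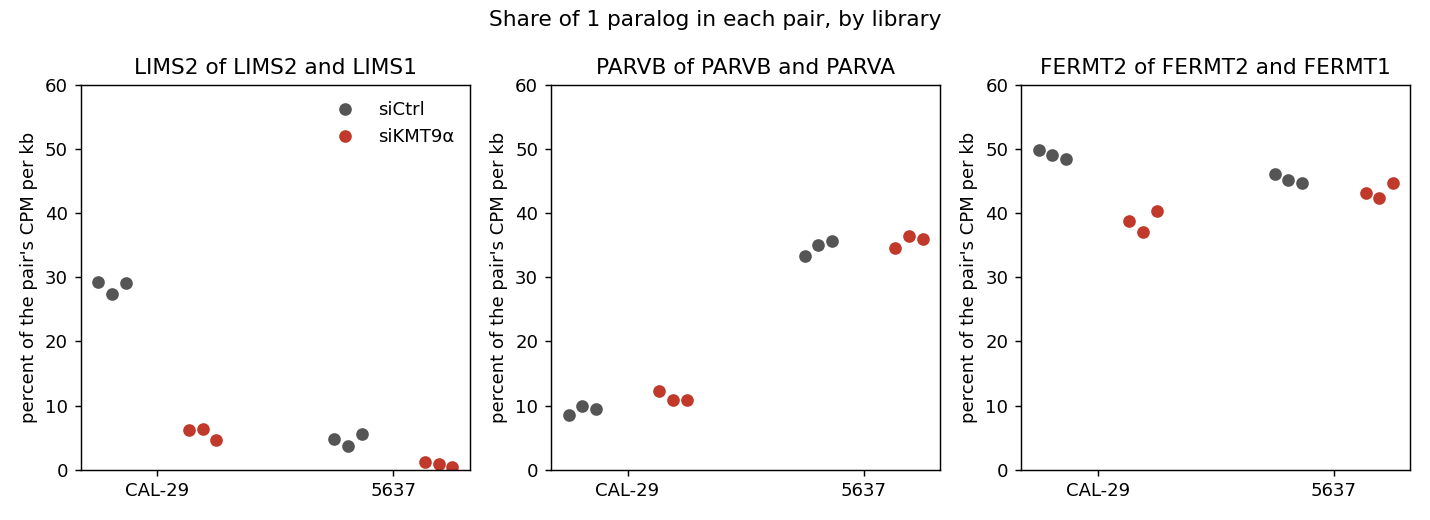
Share of the pair's CPM per kb (vertical axis, percent) held by LIMS2, PARVB and FERMT2 in every library, with grey points for siCtrl and red points for siKMT9α. The LIMS2 share dropped from 27.4 to 29.3% down to 4.55 to 6.31% in CAL-29 cells, and the PARVB share stayed between 33.3 and 36.4% in 5637 cells.

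The paralogs of a pair were compared per kb of annotated transcript, since longer transcripts give more reads. The lengths were those of canonical GENCODE transcripts, which could not be matched to the counted transcripts. The annotated 3′ UTRs of PARVB, for example, ran from 245 to 4261 bases. The shares, and the order of levels given below, therefore depend on these lengths. LIMS2 made up 28.6 ± 1.04% of the PINCH messages in siCtrl CAL-29 cells and 5.71 ± 1.0% in siKMT9α CAL-29 cells (SD, n = 3 each). In 5637 cells its share was 4.63 ± 0.959% with siCtrl and 0.843 ± 0.409% with siKMT9α. CAL-29 cells after knockdown thus had a PINCH2 share near that of siCtrl 5637 cells, with ranges of 4.55 to 6.31% and 3.62 to 5.53% that overlap. PARVB made up 9.29 ± 0.765% of the parvin pair in siCtrl and 11.3 ± 0.751% in siKMT9α CAL-29 cells, and 34.7 ± 1.23% and 35.6 ± 0.985% in 5637 cells. FERMT2 held 49.1 ± 0.755% of the kindlin pair in siCtrl and 38.7 ± 1.65% in siKMT9α CAL-29 cells, and 45.3 ± 0.721% and 43.4 ± 1.17% in 5637 cells, where the ranges touched at 44.7%.

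Per kb and on the scale common to all libraries, the order of levels in siCtrl CAL-29 cells ran from VCL at 163.9 ± 10.6 CPM per kb (SD, n = 3) through ILK at 48.6 and LIMS1 at 38.9 to FERMT1, FERMT2 and TLN1 between 32.3 and 33.6 CPM per kb. The last 3 neighbours overlapped in their ranges. RSU1 and LIMS2 followed at 15.7 and 15.6 CPM per kb and overlapped as well, then PARVA at 5.91 and PARVB at 0.607 CPM per kb, each apart from the gene above. After knockdown LIMS2 stood at 1.44 ± 0.277 CPM per kb in CAL-29 cells, below PARVA and above PARVB. In siCtrl 5637 cells ILK led at 68.7 ± 2.19 CPM per kb, before VCL at 51.8 and TLN1 at 44.7, and LIMS2 was last at 1.26 ± 0.269 CPM per kb. FERMT1 and LIMS1, at 27.2 and 26.0 CPM per kb, were the only neighbours with overlapping ranges in these cells. With siKMT9α the 5637 cells kept LIMS2 at the end of the order, at 0.166 ± 0.0784 CPM per kb.

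The further paralogs were at low levels, except TLN2. PARVG, the leukocyte parvin, was listed at 0 in all 12 libraries, and LIMS3 and LIMS4, near-identical copies whose reads cannot be told from each other, averaged 1.67 counts per library in CAL-29 and 0.67 in 5637 cells. FERMT3, the kindlin of blood cells, had 1.61 and 1.59 CPM in siCtrl and siKMT9α CAL-29 cells and 0.892 and 0.929 CPM in 5637 cells, with edgeR adjusted p-values of 0.978 and 0.849. TLN2, the paralog of talin, fell from 25.9 ± 1.48 to 17.3 ± 0.938 CPM in CAL-29 cells (log2 fold change -0.59 ± 0.08 SE, edgeR adjusted p = 8.64e-07). In 5637 cells TLN2 had 37.6 ± 2.08 and 40.6 ± 0.548 CPM, with an edgeR adjusted p of 0.055.

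A list of 42 other genes of integrin adhesions gave the surroundings of the complex. Of 37 listed genes tested in CAL-29 cells, 15 fell and 2 rose at p below 1e-06, beside the 15.0% lower and 14.9% higher of all genes, and the median of the log2 fold changes was -0.17. Of 38 tested in 5637 cells, 10 fell and 14 rose, beside 17.5% lower and 17.9% higher of all genes, and the median was 0.12. At that threshold 8 genes of the list were lower in both lines (ITGB1, ITGB3, ZYX, FBLIM1, TNS1, FLNA, ACTN1 and ACTN4), and 2 were higher in both (PTK2 and GIT1). No share of all genes called in the same direction in both lines is given here, so these counts are a description. PXN, TGFB1I1, BCAR1 and KANK2 were lower in CAL-29 and higher in 5637 cells.

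In CAL-29 cells the 5 largest changes of the list among genes called with at least 50 counts on average were falls. ITGB3, the integrin β3 chain, went from 33.2 ± 3.69 to 1.58 ± 0.57 CPM (log2 fold change -4.37 ± 0.15 SE, edgeR adjusted p = 6.13e-16). TNS4, a tensin of epithelial cells, went from 158.2 ± 3.63 to 27.5 ± 1.46 CPM (log2 fold change -2.53 ± 0.05). The actin crosslinkers FLNA and ACTN1 and the LIM protein ZYX followed with -1.58, -1.53 and -1.51 on the log2 scale, each ± 0.05. TNS4 had a log2 fold change of only -0.16 ± 0.04 in 5637 cells, and the difference of 2.36 ± 0.07 between the lines had an edgeR adjusted p of 7.25e-21.

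In 5637 cells the list changed in both directions. The lowest log2 fold changes were those of ITGB3 at -2.20 ± 0.32 (SE) and TNS1 at -2.02 ± 0.31, both from means of under 50 counts per library (edgeR adjusted p = 5.53e-07 and 1.16e-06). Among genes with at least 50 counts on average, TNS2, a tensin, fell from 7.07 ± 0.226 to 2.66 ± 0.259 CPM (log2 fold change -1.41 ± 0.12 SE, edgeR adjusted p = 5.09e-11), and ZYX fell from 336.7 to 202.7 CPM (-0.73 ± 0.03). KANK1, which binds talin at the rim of adhesions, rose from 28.9 ± 2.98 to 57.7 ± 1.19 CPM (1.0 ± 0.06, edgeR adjusted p = 2.57e-15). The paxillin relatives LPXN and TGFB1I1 rose by 0.81 ± 0.13 and 0.77 ± 0.08 on the log2 scale. TGFB1I1 had -1.48 ± 0.06 in CAL-29 cells (edgeR adjusted p = 4.95e-15), and its difference between the lines was 2.23 ± 0.10 (edgeR adjusted p = 1.58e-16).

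**Figure D4:**
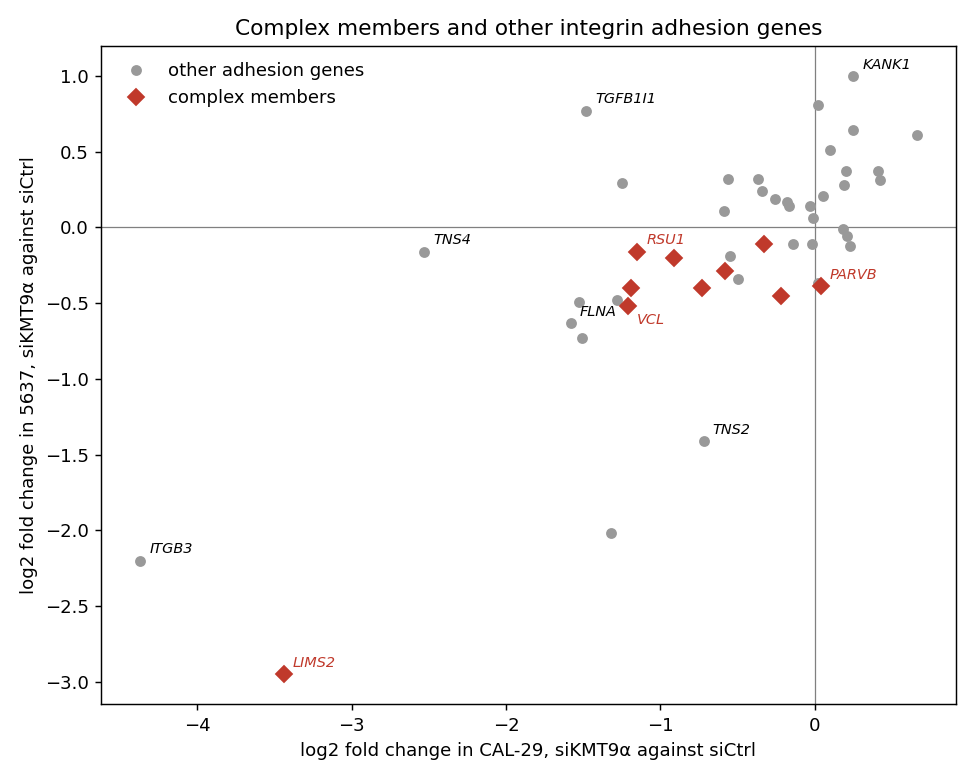
Log2 fold change of siKMT9α against siCtrl in CAL-29 (horizontal axis) and 5637 cells (vertical axis) for the 10 complex members (red diamonds) and the 37 other adhesion genes tested in both lines (grey circles). LIMS2 and ITGB3 lie far to the lower left, and TGFB1I1 lies left of 0 in CAL-29 and above 0 in 5637 cells.

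Over all 12 libraries, the genes whose log2 CPM was most like that of LIMS2 among 11914 genes were TUG1 (Pearson r = 0.994), HOOK3 (0.994), CMTR2 (0.993), ELMOD2 (0.992) and KLHL24 (0.991). These values describe 4 group levels rather than 12 independent points, since all 5 genes were lower in 5637 controls than in CAL-29 controls and lower again with siKMT9α. Their own log2 fold changes were smaller than those of LIMS2, from -0.83 to -1.26 in CAL-29 and from -0.61 to -0.98 in 5637 cells. Among the members, VCL and LIMS1 came closest to LIMS2, with r of 0.962 and 0.961, but they ranked only 239 and 265 among the 11914 genes. ILK had r of -0.207 at rank 6289, and PARVB was the farthest with -0.695.

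LIMS2 lies on the minus strand of chromosome 2 at chr2:128395956-128439360 (hg19), and the plus-strand gene GPR17, an orphan G protein-coupled receptor, lies wholly inside it at chr2:128403439-128410213. Both GPR17 exons fall in intron 4 of the canonical LIMS2 transcript, overlap none of its exons and share 196 bases with exons of other LIMS2 transcripts. GPR17 had 215.5, 157.0 and 169.0 counts in siCtrl and 26.0, 11.5 and 19.5 counts in siKMT9α CAL-29 libraries. Its log2 fold change of -3.43 ± 0.24 (SE) had an edgeR adjusted p of 6.90e-11 and ranked 57 of 14682, next to LIMS2 at 56. In 5637 cells GPR17 was listed at 0 in all 6 libraries, while LIMS2 had 296 counts over the 3 siCtrl libraries. In CAL-29 cells GPR17 had 541.5 counts beside 2927 of LIMS2 over the siCtrl libraries and 57.0 beside 314 over the siKMT9α libraries. Whether counting used the strand is not given in the sources used here, so reads of GPR17 and of the LIMS2 intron cannot be told apart.

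Neighbours of ILK and VCL had fold changes of the opposite sign. The annotation places exons of TAF10 transcripts on the opposite strand over 86.9% of the canonical exon bases of ILK. TAF10 rose from 47.8 ± 2.45 to 60.1 ± 2.39 CPM in 5637 cells (log2 fold change 0.33 ± 0.05 SE, edgeR adjusted p = 4.97e-07). In CAL-29 cells it had 30.8 and 40.0 CPM, with an edgeR adjusted p of 3.24e-05, while ILK was lower in both lines. AP3M1, which overlaps exons of VCL transcripts other than the canonical one, rose in 5637 cells by 0.53 ± 0.05 on the log2 scale (edgeR adjusted p = 4.44e-11) and had 0.21 ± 0.05 in CAL-29 cells (edgeR adjusted p = 0.00184). The part of shared reads in the values of ILK and VCL was not tested.

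An siRNA can lower transcripts whose 3′ UTR pairs with bases 2 to 8 of its guide strand, so the members' 3′ UTRs were searched on the transcript strand for the complement of that stretch of siKMT9α#1, the letters ACATTCA. The 2 members with a match in the canonical 3′ UTR were PARVB and FERMT1. The matches are shown with the matching letters in capitals, as read from GENCODE transcript sequences on the strand of the gene, with positions on hg19.
PARVB: gggatgcagtgACATTCAaaagccacactg
FERMT1: acagacaacatACATTCAccgctggtcacc
The PARVB stretch is chr22:44566901-44566930 on the plus strand and was found in 1 of 4 annotated 3′ UTRs, and the FERMT1 stretch is chr20:6057693-6057722 on the minus strand and was found in 2 of 3. The match in PARVB is followed by an A and that in FERMT1 is not.

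LIMS2 held no such match in any of its 11 annotated 3′ UTRs, nor did LIMS1, ILK, PARVA, RSU1, FERMT2, TLN1 or VCL in any of theirs. The letters were found in 13.9% of 13208 genes that passed the filter in CAL-29 cells and have an annotated canonical 3′ UTR, and in 14.2% of 12972 such genes in 5637 cells. As a description over these genes, the median log2 fold change was -0.29 with and 0.04 without the letters in CAL-29 cells, and -0.33 with and 0.03 without them in 5637 cells. The lengths of the 3′ UTRs were not taken into account, and the cause of this gap was not tested. The members with the letters were PARVB, at 0.04 and -0.39 in the lines, and FERMT1, at -0.58 and -0.29, whereas LIMS2 without them had -3.44 and -2.95. The complement of the same bases of the other strand, TACAGCG, was found in no member and in the longest 3′ UTR of 1.74% of the CAL-29 genes. Genes with TACAGCG had a median of 0.02 in CAL-29 and 0.06 in 5637 cells, beside -0.0 and -0.01 without it. A match is a description of letters and not a site of action, and the lack of one says only that these letters are not in the annotated 3′ UTRs.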

How the data were processed

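RNA-seq of CAL-29 and 5637 cells was analysed from 2 deposited tables, 1 per line, of 37400 transcript rows. Per the labels' processing notes and the methods of the study, the authors aligned reads with STAR to hg19 and counted them with HOMER, which gives estimated counts per RefSeq transcript. Here 36.1 to 38.4% of a library's values over all rows were not whole, and they were rounded. The authors' own deposited columns of each comparison, log2 fold changes and p-values with adjusted p-values from edgeR, were not used. Totals over 1 row per gene ran from 24479348 to 35151256 counts, and the chi-square of replicates per degree of freedom, from 2.25 to 12.2, exceeded sampling noise, with the 2 highest values in pairs with the CAL-29 library siCtrl 1.

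The row with the most counts stood for a gene, chosen within each line for the fits per line and over both lines for the model of 12 libraries. Per line, edgeR 4.0.16 (filterByExpr, TMM, quasi-likelihood F test) compared 3 siKMT9α with 3 siCtrl libraries. Genes with an unadjusted p below 1e-06 were called, as in the study, and Benjamini-Hochberg adjusted p below 0.05 was given beside this. A model of 4 groups over 12 libraries tested the difference of the responses (adjusted p below 0.05) and of the siCtrl groups. Lengths, 3′ UTRs and overlaps came from canonical GENCODE transcripts on hg19, since the counted RefSeq transcripts could not be matched to it. The siRNA, coded in the tables, was taken as siKMT9α#1 from the study's text. Samples were grouped by their titles, which number the replicates, whereas the sample descriptions number the siKMT9α replicates otherwise.

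The members and lists were chosen with earlier results of these data known. Named genes were the members, N6AMT1, paralogs of members, per line the 5 adhesion genes with the largest absolute log2 fold change past the threshold with a mean count of at least 50, the 5 genes most like LIMS2 in log2 CPM (prior count 2, at least 50 counts on average in both lines), and genes overlapping a member. Adhesion genes named for their pattern over both lines were chosen after their values were seen, and a gene of that list is not reported here by name. Alternatives were DESeq2, other scalings and filters, a replicate block, other rows and leaving out each library.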

Additional observations from a re-analysis of the deposited data

Results flagged for a closer look

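The response to siKMT9α differed between the lines for all 9 tested members by the edgeR test of the difference, given here as the log2 fold change in 5637 minus that in CAL-29 cells. The values were 0.31 for LIMS1, 0.69 for ILK, 0.97 for RSU1, 0.27 for FERMT1, 0.77 for FERMT2, 0.20 for TLN1 and 0.68 for VCL. They were negative for the parvins, with -0.24 for PARVA and -0.50 for PARVB. The highest adjusted p among the 9 was 0.00542, for TLN1, where 50.3% of all genes tested passed an adjusted p below 0.05. Of 38 other adhesion genes tested, 25 passed it, 20 of them with a higher value in 5637 cells. N6AMT1 itself had a difference of -0.24 ± 0.21 (SE) with an edgeR adjusted p of 0.362. The transfection reagent and siRNA concentration went with the line and cannot be told apart from it.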

How the results depend on the processing

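Adding a fold change of at least 1 on the log2 scale to p below 1e-06 left 3 members called in CAL-29 and 0 in 5637 cells (6 at p below 1e-06 alone by edgeR), 9 and 4 other adhesion genes, and 1513 and 1061 of all genes. By the same rule 4 members differed between the control lines, with LIMS2 counted among them. For the response that differs between the lines, p below 1e-06 in place of an adjusted p below 0.05 left 4 of 9 members, and the fold limit with it left 0. No share of all genes by these rules is given for the controls or for the response, so these counts are a description. Testing every transcript row gave 7847 called rows in CAL-29 and 9234 in 5637 cells, since rows of a gene count separately. All other alternatives left the counts within 1.5 times. Leaving out 1 library gave 6 to 7 members called in CAL-29 and 5 to 6 in 5637, 12 to 20 and 17 to 22 other adhesion genes, 3160 to 5533 and 4219 to 4952 genes, and 9 members that differ in response throughout. Between controls 9 to 10 members differed, in a count over all 10 members that includes LIMS2 and is a description for it. Of the fold changes of the 9 tested members and N6AMT1, 267 kept direction and side of the threshold, 8 lost the call (TLN1 in CAL-29 cells in 6 and PARVB in 5637 cells in 2, without siCtrl replicate 3 or siKMT9α replicate 2), 3 gained it (ILK in 5637) and 2 reversed: PARVB in CAL-29 went from 0.04 to -0.03 without siCtrl replicate 1 and to -0.05 without siKMT9α replicate 1, within a range of -0.05 to 0.13 over the libraries left out. LIMS2, which has no test, ranged from -3.53 to -3.30 in CAL-29 and from -3.31 to -2.61 in 5637 cells, where the filter of 10 counts in every library removed it.

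Libraries with the same number in their titles deviated together at r from -0.0125 to 0.167. In 2 of 6 pairs r was above 0.1, for replicate 1 of CAL-29 (0.167) and of 5637 cells (0.154). Not every library correlated best with its own number. With 3 libraries per group this check cannot exclude pairing, and the main fits did not pair the libraries. A replicate block gave 7 members called in CAL-29 and 6 in 5637 cells, as in the main fits. It called 6194 genes in CAL-29 and 5226 in 5637 cells, in place of 4396 and 5085. The fit of the row with the fewest counts per symbol, chosen after seeing the data, called as many members. The longest row per symbol was not run, since no lengths of the counted transcripts were used here. Searching the longest in place of the canonical 3′ UTR gave the same 2 members with ACATTCA, and the shortest gave none. The letters CACATTC of siKMT9α#2, also searched after seeing the data, were in the longest 3′ UTR of PARVB and FERMT2, and in that of 13.5% of genes tested in CAL-29 and 13.7% in 5637 cells. Depth limits LIMS2 in 5637 cells, at 6 to 15 counts with siKMT9α.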
